A study of Tachysurus fulvidraco x Tachysurus vachelli with 6 samples.

Results

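DNA replication machinery genes were followed in gill tissue of juvenile hybrid yellow catfish that had been transported for 16 h. The tissue was the second gill of the left side. Members were taken from the deposited gene table by annotation. A gene was included if its KEGG cell held the DNA replication term, if its product name contained "minichromosome maintenance", "DNA replication licensing factor", "origin recognition complex" or "DNA replication complex GINS", or if it was mcm10 or timeless. This gave 64 of the 25792 genes in the table, 49 by the KEGG term, 13 more by product name and 2 by symbol. The study had 2 groups, 3 gill libraries from fish transported for 16 h and 3 from untreated fish, and all fish were crosses of Tachysurus fulvidraco mothers with P. vachellii fathers. The labels give no water conditions, fish density or age beyond the juvenile stage, and they do not say whether a library holds 1 fish or several, so the p-values rest on library-to-library spread alone, part of which may be technical.

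Before a cell divides, it copies its DNA once. The origin recognition complex marks the starting points, the ring-shaped MCM2-7 helicase is loaded there, and MCM10, CDC45 and GINS turn the loaded ring into a moving fork. Primase and polymerase alpha lay the first stretch, polymerases delta and epsilon extend it on the PCNA clamp, RPA covers the exposed single strand, and FEN1, RNase H and DNA ligase finish the lagging strand. In fish gill, dividing cells renew an epithelium that is in constant contact with water, and these genes are widely used as markers of proliferating cells.

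The libraries held between 42962760 and 58495713 deposited estimated counts each. Genes typical of gill were present in both groups, with the keratin 8-like gene LOC113641938 at 1290.0 FPKM on average after transport and 1582 FPKM in controls. The ionocyte gene foxi1 averaged 15.3 FPKM after transport and 16.8 FPKM in controls, and rhcg 146.4 FPKM after transport and 146.5 FPKM in controls. These 2 do not stand for the whole ionocyte list. Of its 12 tested genes, 8 log2 fold changes were positive and 4 negative (median 0.34), and 1 gene was called higher. FPKM are fragment counts scaled to transcript length and library size. Levels between genes are compared here on that scale only. Of the 64 members, 61 had enough counts to be tested. The other 3 were LOC113657222, a second orc6 copy with at most 0.3 FPKM, and the uncharacterized LOC113645369 and LOC113650760, both listed at 0 in every library.

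The replication genes that passed the test were all lower after transport. They were 4 of the 6 genes of the ring helicase, the helicase activator mcm10, the fork protein gene timeless, the clamp gene pcna, the clamp loader gene rfc5 and a primase subunit gene. At an edgeR adjusted p under 0.05, 9 of the 61 fell and none rose, against 6.69% of all 20771 tested genes that changed, 3.46% that fell and 3.23% that rose. The log2 fold change was negative in 49 of the 61 (49.8% of all tested genes), and its median was -0.38, against 0.00 over all genes tested. In 27 of the 61, all 3 transport values lay below all 3 control values, which held for 15% of all tested genes. In 4 they lay above all control values, against 17.6%. Groups without overlap in either direction made up 32.7% of all tested genes. An unadjusted edgeR p under 0.05 was found for 27 of the 61 members and 25.0% of all tested genes. The number of calls changed with the library left out, among the members and over all genes. No member was called without transport replicate 1, 2 or 3 or without control replicate 3. There, 0.775%, 0.00469%, 0.342% and 0.802% of all genes fell, in the same order. Without control replicate 2, 2 members fell (2.17% of all genes), and without control replicate 1, 11 fell (3.93%). DESeq2 called 20 members lower and none higher, where 7.69% of all genes fell. The 9 log2 fold changes stayed negative in each of those fits, with an unadjusted p under 0.05 (by edgeR, or by DESeq2 in the DESeq2 fit). In a bulk tissue library, fewer replicating cells and less of each transcript per cell cannot be told apart.

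**Figure D1:**
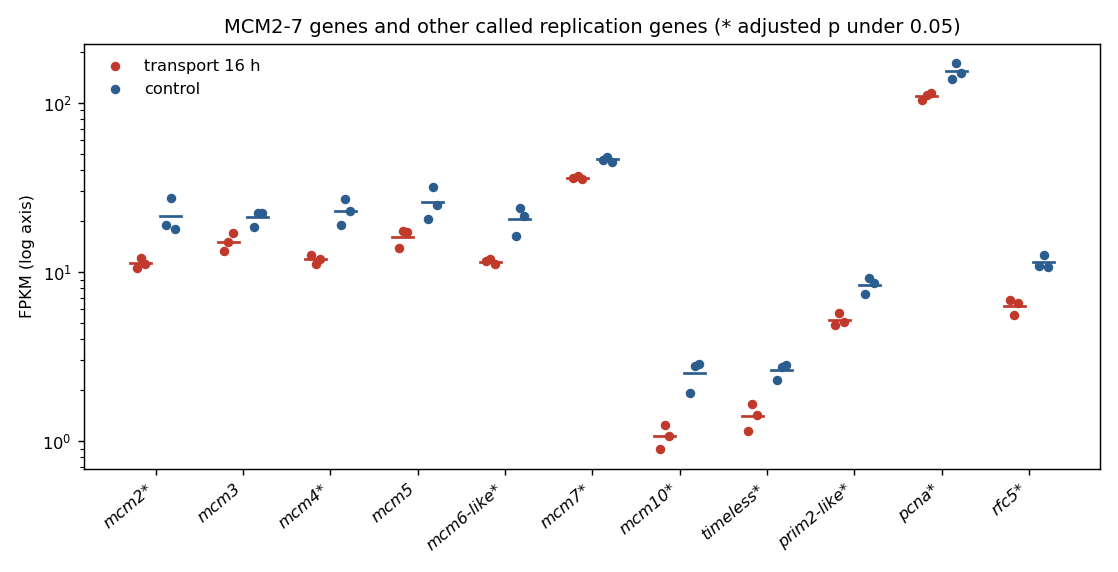
FPKM (log axis) of the 6 MCM2-7 genes and the 5 other called members in each library, with transport (red) left of control (blue), points for libraries and lines for group means. In all 11 genes the 3 transport points lie below the 3 control points, which held for 15% of all tested genes. The called genes were plotted because they were lower, so for them this is no further result. The most abundant gene is pcna, at 109.8 FPKM after transport and 153.5 FPKM in controls.

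The MCM2-7 helicase is a ring of 6 related ATPases that unwinds the template. All 6 genes had non-overlapping groups with transport lower, which held for 15% of all tested genes (32.7% had no overlap in either direction). Of the 6 genes 4 fell, against 3.46% of all tested genes. For mcm4 (NW_020847763.1, 10058819 to 10065462) the libraries read 12.6, 11.1 and 11.9 FPKM after transport, against 18.9, 27.1 and 22.8 FPKM in controls. On the log2 scale the difference was -0.97 (SE 0.15), with the smallest edgeR adjusted p of all members (0.0208). For mcm2 (NW_020848309.1, 348823 to 359083) the values were 10.6, 12.01 and 11.2 FPKM after transport and 18.9, 27.4 and 17.8 FPKM in controls, with control replicate 2 well above the other controls. The difference on the log2 scale was -0.94 (SE 0.18, edgeR adjusted p = 0.0314). LOC113663688, annotated as MCM6-like (NW_020848112.1, 1964784 to 1970912), stood at 11.5, 11.9 and 11.1 FPKM after transport and 16.3, 23.9 and 21.5 FPKM in controls (log2 fold change -0.86, SE 0.16, edgeR adjusted p = 0.0290). The 3 transport values of each of these genes lay within 2 FPKM of each other, while the controls were spread more widely.

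The remaining ring subunits had smaller differences. For mcm7 (NW_020848034.1, 2144716 to 2152168), the most abundant of the 6, the libraries read 36.0, 36.8 and 35.3 FPKM after transport and 46.0, 47.7 and 44.7 FPKM in controls. The log2 difference of -0.38 (SE 0.08, edgeR adjusted p = 0.0440) was the smallest of the called members, with little spread in either group. Neither mcm3 nor mcm5 passed the edgeR test, while DESeq2 called both (adjusted p = 0.0195 and 0.0066). For mcm3 the values were 13.4, 14.9 and 16.96 FPKM after transport and 18.4, 22.3 and 22.4 FPKM in controls (log2 fold change -0.50, edgeR adjusted p = 0.0792). For mcm5 they were 13.8, 17.4 and 17.1 FPKM after transport and 20.6, 31.9 and 25.0 FPKM in controls (-0.70, edgeR adjusted p = 0.0692).

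The smaller difference of mcm7 showed in the make-up of the summed MCM2-7 level. Its share of the 6 genes' FPKM was 36.8%, 35.4% and 34.1% after transport and 33.1%, 26.4% and 29.0% in controls, a mean difference of 5.89 percentage points. The share of mcm4 was 11.7% ± 1.11 after transport and 14.5% ± 0.785 in controls (SD, n = 3 each). Both comparisons had an exact two-sided permutation p of 0.1, the smallest that 3 against 3 libraries allow, and 0.28 when adjusted over the 28 subunit shares compared in 6 complexes. Embryos of fish and frogs carry extra, maternally supplied MCM copies. In the gill the maternal mcm3-like gene LOC113663999 averaged 0.537 FPKM after transport and 0.587 FPKM in controls, and the maternal mcm6-like gene LOC113655493 averaged 0.637 FPKM after transport and 0.353 FPKM in controls, neither called (edgeR adjusted p = 0.905 and 0.415). LOC113655493 lies within LOC113655498 on the opposite strand. The authors' counting could have split reads between these copies and mcm3 or the MCM6-like gene.

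**Figure D2:**
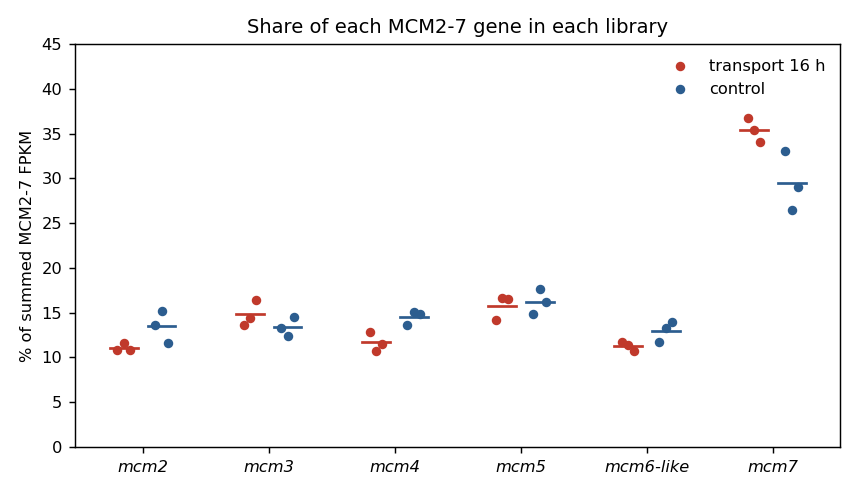
Share of each MCM2-7 gene in the summed FPKM of the 6 genes, in percent, for each transport (red) and control (blue) library, with lines for group means. The mcm7 share is higher in the 3 transport libraries (35.4% on average) than in the 3 controls (29.5%), and the mcm4 share is lower (11.7% against 14.5%).

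Origin recognition genes, which act before helicase loading, had no called member among the 6 tested. An unadjusted edgeR p under 0.05 was found for 1 of the 6, against 25.0% of all tested genes. Their log2 fold changes ran from -0.80 to 0.14. Orc5, the one with separate lower values, stood at 5.32, 5.57 and 6.10 FPKM after transport and 8.66, 7.52 and 6.52 FPKM in controls (log2 fold change -0.43, SE 0.17, edgeR adjusted p = 0.163). For orc1, the large ATPase subunit of the complex, the values were 0.94, 0.91 and 2.07 FPKM after transport and 1.72, 2.90 and 2.15 FPKM in controls, so that transport replicate 3 reached the control range (-0.80, SE 0.39, edgeR adjusted p = 0.257). For orc3 the libraries read 8.97, 9.59 and 8.90 FPKM after transport and 9.22, 12.1 and 9.34 FPKM in controls (-0.17, SE 0.15, edgeR adjusted p = 0.521). Orc4, with 10.5 ± 0.222 FPKM after transport and 9.86 ± 0.468 FPKM in controls (SD, n = 3 each), had separate groups with transport above (0.07, SE 0.12), and orc2, orc3 and orc6 had overlapping groups. The summed level of the role was 30.7, 31.3 and 34.3 FPKM after transport and 35.8, 38.5 and 32.0 FPKM in controls.

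Genes that start and protect the fork had the largest called difference. MCM10 binds the loaded helicase and is needed for the fork to leave the origin. Its gene, mcm10 (NW_020847801.1, 7340219 to 7350192), stood at 0.89, 1.25 and 1.07 FPKM after transport and 1.93, 2.77 and 2.85 FPKM in controls, which is -1.25 on the log2 scale (SE 0.25, edgeR adjusted p = 0.0349). These levels rested on 133 to 212 estimated counts per library after transport and 324 to 560 in controls. The fragments behind them may be fewer. With all counts divided by 4, the edgeR adjusted p of mcm10 was 0.0305. The protein made from timeless holds the helicase and polymerases together at the vertebrate fork, although its fly namesake is a clock gene. For timeless (NW_020847967.1, 451323 to 472641) the libraries read 1.15, 1.66 and 1.43 FPKM after transport and 2.30, 2.73 and 2.80 FPKM in controls (-0.90, SE 0.21, edgeR adjusted p = 0.0492). The groups of both genes were separate with transport lower, which held for 15% of all tested genes. However, timeless lay close to the threshold and lost its call when any one of the 6 libraries was left out (edgeR adjusted p from 0.0503 to 0.155). The same was true of mcm7 (0.0543 to 0.186).

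The 4 GINS subunits join CDC45 and the ring to form the active helicase. None of the 4 was called by edgeR (2 had an unadjusted p under 0.05, against 25.0% of all tested genes, and DESeq2 called gins1 and gins4). Each had a negative log2 fold change, and their median was -0.54. For gins1 the values were 6.30, 6.18 and 5.62 FPKM after transport and 9.40, 12.3 and 7.78 FPKM in controls (log2 fold change -0.72, SE 0.21, edgeR adjusted p = 0.0880). Gins4 stood at 9.73, 14.5 and 10.4 FPKM after transport and 13.9, 22.1 and 23.0 FPKM in controls, with transport replicate 2 inside the control range (-0.79, SE 0.25, edgeR adjusted p = 0.112). Gins2 had 14.2 ± 1.14 FPKM after transport and 17.4 ± 2.51 FPKM in controls, and gins3 had 6.68 ± 0.312 FPKM after transport and 8.42 ± 0.994 FPKM in controls (SD, n = 3 each).

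Polymerase alpha and primase, which make the RNA-DNA primer of every fragment, had 1 called gene of 4. Among all tested genes 3.46% fell. All 4 genes of this role had separate groups with transport lower, which held for 15% of all tested genes (32.7% had no overlap in either direction). The called gene was LOC113661118, similar to the large primase subunit (NW_020848052.1, 3426157 to 3488934). It stood at 4.84, 5.71 and 5.05 FPKM after transport and 7.44, 9.18 and 8.53 FPKM in controls (log2 fold change -0.71, SE 0.16, edgeR adjusted p = 0.0488). The catalytic subunit gene pola1 read 1.67, 3.43 and 3.15 FPKM after transport and 4.84, 4.28 and 5.62 FPKM in controls. Its log2 fold change of -0.85 had a wider error (SE 0.28, edgeR adjusted p = 0.117; DESeq2 adjusted p = 0.0264). The small primase subunit gene prim1 had 5.29, 5.74 and 5.20 FPKM after transport and 6.81, 9.50 and 6.39 FPKM in controls (-0.50, edgeR adjusted p = 0.171), and pola2 averaged 5.42 FPKM after transport and 7.03 FPKM in controls.

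Polymerases delta and epsilon copy the bulk of the lagging and leading strands. None of their 9 genes was called (3 had an unadjusted edgeR p under 0.05, against 25.0% of all tested genes, and DESeq2 called none). For pole, the epsilon catalytic subunit, the libraries read 1.73, 1.18 and 1.21 FPKM after transport and 2.75, 2.47 and 1.62 FPKM in controls (log2 fold change -0.75, SE 0.25, edgeR adjusted p = 0.122). Pole2, its second subunit, stood at 6.19, 5.31 and 5.19 FPKM after transport and 7.54, 9.02 and 7.14 FPKM in controls (-0.52, SE 0.16, edgeR adjusted p = 0.0985). The small histone-fold subunit gene pole3 averaged 12.5 ± 0.488 FPKM after transport and 12.4 ± 1.16 FPKM in controls (-0.01, SE 0.13), and its partner pole4 averaged 13.0 ± 1.19 FPKM after transport and 14.6 ± 0.563 FPKM in controls (-0.18, SE 0.15). The shares of the epsilon subunits were also compared. Pole3 made up 38.3% ± 1.95 of the summed epsilon FPKM after transport and 33.4% ± 2.98 in controls. The exact two-sided permutation p was 0.1 (0.28 adjusted over the 28 shares). Pole2 (-4.19 percentage points, transport minus control) and LOC113651658 (0.64 percentage points) had the same p. As 0.1 is the smallest p that 3 against 3 libraries allow, this test cannot decide whether the subunits differ in response. LOC113651658, a sequence annotated like the epsilon catalytic subunit, reached only 0.37, 0.19 and 0.19 FPKM after transport and 0.13, 0 and 0 FPKM in controls.

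Among the delta genes, pold2 had 6.71, 8.42 and 6.22 FPKM after transport and 9.72, 10.2 and 8.40 FPKM in controls (log2 fold change -0.42, edgeR adjusted p = 0.179). For the catalytic subunit gene pold1 the values were 5.88, 6.13 and 6.49 FPKM after transport and 6.54, 8.10 and 6.47 FPKM in controls (-0.21, SE 0.13, edgeR adjusted p = 0.394). The groups overlapped in all 4 delta genes. Pold4, the most abundant of them, had 34.6, 25.5 and 20.3 FPKM after transport and 32.9, 27.7 and 40.6 FPKM in controls (-0.35, SE 0.23, edgeR adjusted p = 0.403). Pold3, a subunit that binds PCNA, averaged 9.04 FPKM after transport and 7.48 FPKM in controls, with control replicate 3 lowest at 5.27 FPKM. Over 132 bases, pold2 overlaps the carboxypeptidase-like gene LOC113656821 on the opposite strand, which had 2.67, 2.37 and 1.89 FPKM after transport and 5.99, 6.47 and 7.69 FPKM in controls. Its part in the pold2 values was not tested.

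**Figure D3:**
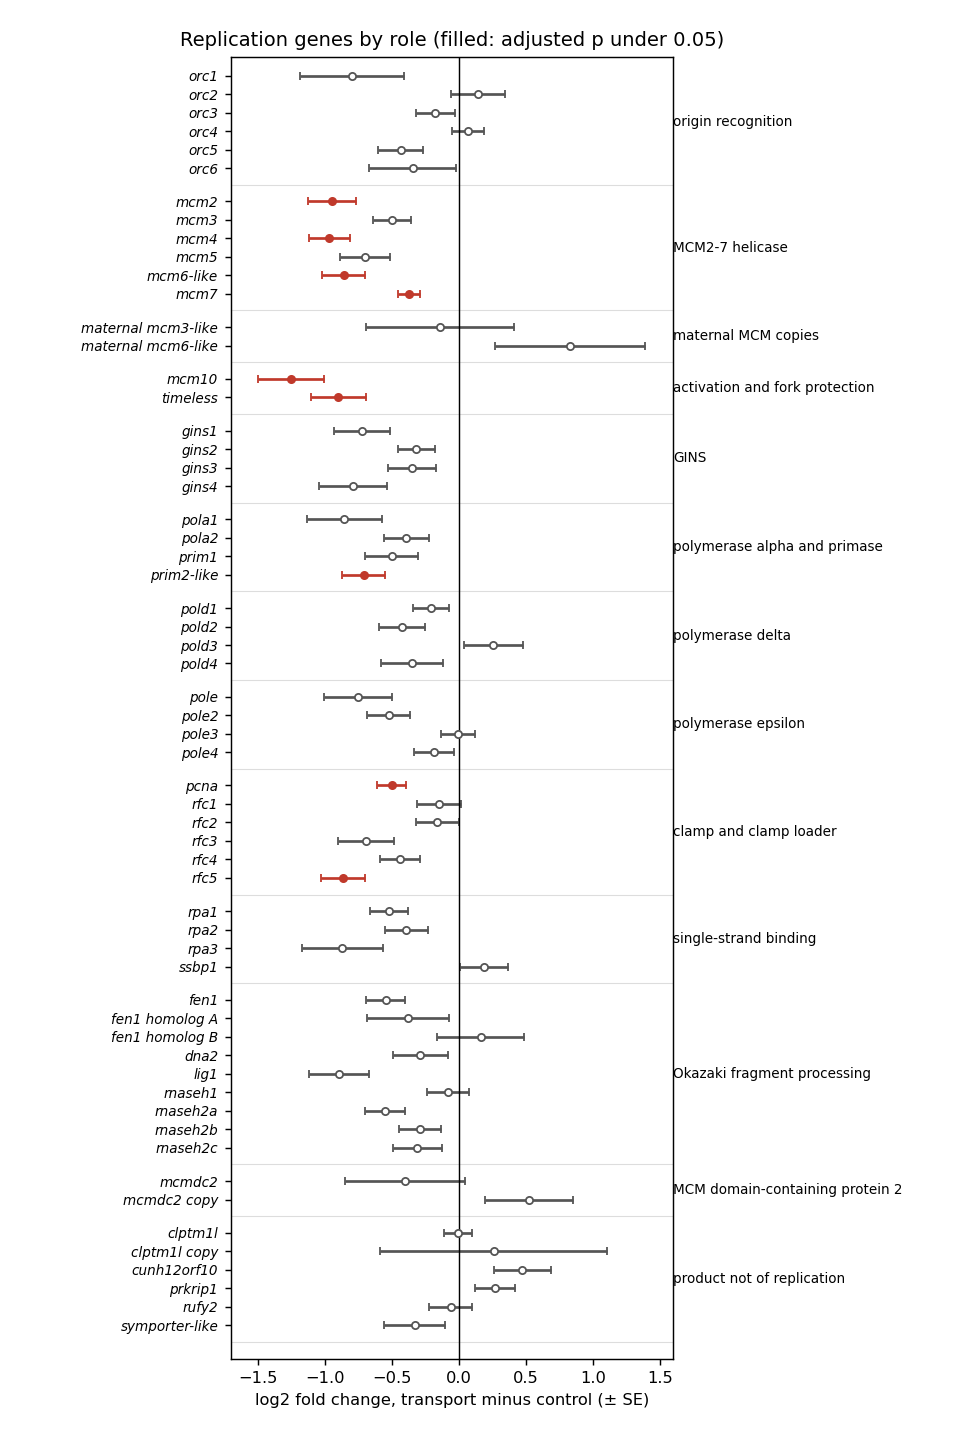
Log2 fold change (transport minus control, with SE bars) of 59 tested members, grouped by role from origin recognition at the top to products not of replication at the bottom; filled red points passed the edgeR test, open points did not. All filled points lie left of 0, from -1.25 for mcm10 to -0.38 for mcm7, and 2 low-count copies with wide errors, LOC113651658 (2.54, SE 1.56) and LOC113654688 (1.41, SE 1.20), are left out of the plot.

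The sliding clamp and its loader had 2 called genes of 6, both lower, while 3.46% of all tested genes fell. PCNA rings the DNA and tethers the polymerases. Its gene, pcna (NW_020848051.1, 2062392 to 2064761), was the most abundant member, at 104, 111 and 114 FPKM after transport and 139, 171 and 151 FPKM in controls (log2 fold change -0.50, SE 0.11, edgeR adjusted p = 0.0437). Replication factor C is the 5-part ATPase that opens and loads the ring. Its small subunit gene rfc5 (NW_020847937.1, 2905331 to 2913588) stood at 6.80, 5.59 and 6.57 FPKM after transport and 10.8, 12.6 and 10.7 FPKM in controls (-0.86, SE 0.16, edgeR adjusted p = 0.0312). The nearest other member to rfc5 was pole, 107259 bases away on the same scaffold and strand.

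Of the other loader genes, rfc3 had 9.84, 11.2 and 11.7 FPKM after transport and 15.4, 22.7 and 14.1 FPKM in controls (log2 fold change -0.69, SE 0.21, edgeR adjusted p = 0.0951, DESeq2 adjusted p = 0.0299). For rfc4 the libraries read 10.5, 11.6 and 11 FPKM after transport and 12.9, 16.3 and 15.1 FPKM in controls (-0.44, SE 0.15, edgeR adjusted p = 0.122). Both had separate groups with transport lower, which held for 15% of all tested genes. The large subunit gene rfc1 averaged 7.74 FPKM after transport and 8.49 FPKM in controls, and rfc2 averaged 16.7 FPKM after transport and 18.4 FPKM in controls, with overlapping groups.

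RPA, a complex of 3 subunits, covers single-stranded DNA in the nucleus. None of its genes was called by edgeR, where 3.46% of all tested genes fell. DESeq2 called rpa1 and rpa3 lower, where 7.69% of all genes fell. Rpa1, rpa2 and rpa3 each had an unadjusted edgeR p under 0.05, against 25.0% of all tested genes, while the rpa2-like gene LOC113654688 did not. For rpa1 the values were 22.3, 18.7 and 17.8 FPKM after transport and 23.96, 31.6 and 27.7 FPKM in controls (log2 fold change -0.52, SE 0.14, edgeR adjusted p = 0.0755). Rpa3 stood at 15.5, 20.5 and 17.9 FPKM after transport and 26.7, 48.3 and 22.4 FPKM in controls, where control replicate 2 was the highest (-0.87, SE 0.30, edgeR adjusted p = 0.131). The whole 2670-base span of rpa3 lies within umad1 on the opposite strand, which had 2.13 to 3.38 FPKM over the 6 libraries. Rpa2 averaged 17.3 FPKM after transport and 22.4 FPKM in controls, and the similar LOC113654688 had 0.96, 2.48 and 1.96 FPKM after transport and 0.99, 1.00 and 0 FPKM in controls. The mitochondrial single-strand binding gene ssbp1 averaged 10.7 ± 0.281 FPKM after transport and 9.31 ± 1.77 FPKM in controls (0.19, SE 0.18, edgeR adjusted p = 0.580).

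Okazaki fragment processing had no called member among 9, while DESeq2 called lig1, fen1 and rnaseh2a. An unadjusted edgeR p under 0.05 was found for 3 of the 9, against 25.0% of all tested genes. The log2 fold change was below 0 for 8 of the 9 (median -0.31). DNA ligase 1 seals the nicks of the lagging strand. Its gene, lig1, stood at 3.95, 3.06 and 3.58 FPKM after transport and 7.22, 7.14 and 5.06 FPKM in controls (-0.89, SE 0.22, edgeR adjusted p = 0.0601), with separate groups. The deposited model of lig1 is a partial product at a scaffold end, starting at base 68 of NW_020848150.1. For fen1, the flap endonuclease, the libraries read 10.99, 10.2 and 10.3 FPKM after transport and 13.2, 17.7 and 14.4 FPKM in controls (-0.55, SE 0.15, edgeR adjusted p = 0.0745). For rnaseh2a, the catalytic subunit of the enzyme that cuts RNA out of DNA, they read 6.34, 5.54 and 6.0 FPKM after transport and 8.98, 8.71 and 8.17 FPKM in controls (-0.55, SE 0.15, edgeR adjusted p = 0.0718). Rnaseh2b averaged 10.3 FPKM after transport and 12.4 FPKM in controls, with separate groups, while rnaseh1, rnaseh2c and dna2 had overlapping groups. Also overlapping were LOC113638498 and LOC113638504, flap endonuclease homologs 8678 bases apart on the same strand, the one at 11.6 FPKM after transport and 14.9 FPKM in controls, the other at 4.69 FPKM after transport and 4.13 FPKM in controls.

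Summed over its genes, each role can be read across libraries. The MCM2-7 sum was 97.9, 104 and 103.5 FPKM after transport and 139.1, 180.4 and 154.1 FPKM in controls. The clamp and loader sum was 151.7, 166.3 and 169.2 FPKM after transport and 204.7, 248.7 and 218.4 FPKM in controls, most of it pcna. The polymerase delta sum was 49.1 ± 7.03 FPKM after transport and 57.7 ± 3.71 FPKM in controls. The largest part of it was pold4, at 53.9% on average after transport and 58.2% in controls. Polymerase delta and origin recognition were the 2 of the 10 roles whose groups overlapped. Control replicate 2 had the highest level of 26 of the 53 tested machinery genes and transport replicate 1 the lowest of 22. Such counts were not made over all tested genes, so they cannot be read as a trait of the replication genes. The median of the 53 genes, relative to the mean of the 6 libraries on the log2 CPM scale, was -0.28, -0.16 and -0.22 in transport replicates 1, 2 and 3 and 0.11, 0.34 and 0.17 in control replicates 1, 2 and 3. The median over all tested genes stayed within 0.03 of 0 in every library.

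**Figure D4:**
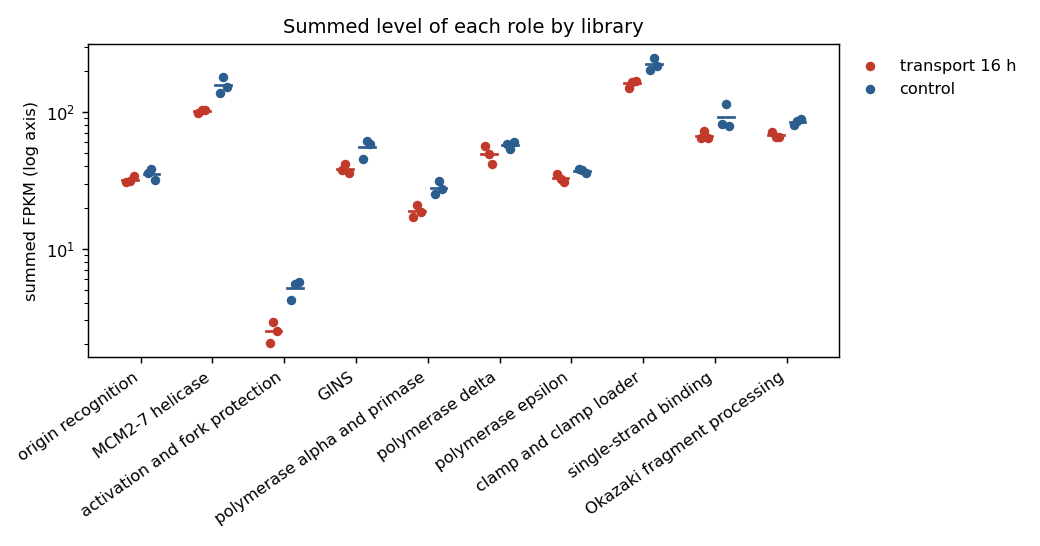
Summed FPKM (log axis) of each of the 10 replication roles in each transport (red) and control (blue) library, with lines for group means. The transport points lie below the control points in 8 roles, such as MCM2-7 (101.8 against 157.8 FPKM on average), and overlap them in origin recognition and polymerase delta.

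Not every gene that the deposited KEGG column assigned to DNA replication has a replication product. For 8 members the product name points elsewhere or is uncharacterized, while the KEGG orthology cell still holds the number of a replication protein. These include clptm1l and its copy LOC113644434, rufy2, prkrip1, cunh12orf10 and LOC113641649, a transporter similar to the sodium-dependent lysophosphatidylcholine symporter. Of the 6 tested, none was called, and 3 log2 fold changes were positive and 3 negative. Clptm1l averaged 20.8 ± 1.40 FPKM after transport and 20.7 ± 1.27 FPKM in controls. Cunh12orf10, which encodes the MYG1 exonuclease, read 15.3, 16.0 and 22.1 FPKM after transport and 14.8, 13.4 and 9.84 FPKM in controls (log2 fold change 0.47, edgeR adjusted p = 0.226). Prkrip1 read 23.6, 24.4 and 26.9 FPKM after transport and 22.5, 21.6 and 17.4 FPKM in controls (0.27, edgeR adjusted p = 0.315). Without these members and the pair below, 9 of 53 fell, 45 of the 53 values were negative and the median was -0.39.

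A pair of genes named for an MCM domain-containing protein, mcmdc2 and LOC113661551, overlap by 699 bases on opposite strands. MCMDC2 is known in mice for its role in meiosis. For mcmdc2 the values were 7.80, 9.07 and 8.63 FPKM after transport and 7.07, 6.0 and 20.1 FPKM in controls, so that control replicate 3 stood alone. For LOC113661551 they were 22.1, 26.0 and 29.5 FPKM after transport and 25.7, 9.91 and 17.8 FPKM in controls. Neither was called (edgeR adjusted p = 0.639 and 0.375).

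The members also share other deposited annotation. The KEGG cell cycle term was held by 16 members, of which 15 were tested and 5 fell, with a median log2 fold change of -0.43. The mismatch repair term was held by 18, of which 2 fell, with a median of -0.37. These calls are among the 9 given above and are no further result. Of all tested genes, 3.46% fell. The 64 members lay on 50 scaffolds.

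Genes that work with the machinery were read from lists of known pathway genes. These lists were chosen with earlier results of these data known, so their counts are no independent test. Among 33 origin firing and fork genes outside the members, 15 had an unadjusted edgeR p under 0.05, against 25.0% of all tested genes. Of the 33 genes, 3 fell and none rose (3.46% and 3.23% of all tested genes), with a median of -0.36. These were mtbp, which helps to fire origins, at 1.68, 1.76 and 1.61 FPKM after transport and 2.86, 4.19 and 3.29 FPKM in controls (edgeR adjusted p = 0.0319), the fork protein gene donson, at 4.33 ± 0.623 FPKM after transport and 7.71 ± 0.884 FPKM in controls, and wdhd1, which links polymerase alpha to the helicase, at 5.07 ± 0.216 FPKM after transport and 7.52 ± 0.592 FPKM in controls. Of the helicase loading genes, cdc6 averaged 17.7 FPKM after transport and 14.8 FPKM in controls, cdt1 averaged 3.14 FPKM after transport and 3.88 FPKM in controls, and neither was called (edgeR adjusted p = 0.461 and 0.338). The fork helicase partner cdc45 had 3.79, 3.37 and 2.82 FPKM after transport and 3.37, 6.72 and 5.27 FPKM in controls (-0.64, edgeR adjusted p = 0.209). These 3 genes, named after their values were seen because they act with the members at the origin, had overlapping groups.

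Nucleotide supply genes split. Of 22 tested, 4 fell and none rose (3.46% and 3.23% of all tested genes), while 11 values were negative and 11 positive (median 0.00). In this list 13 genes had an unadjusted edgeR p under 0.05, against 25.0% of all tested genes. Transport values lay all below the controls in 10 genes and all above in 5, against 15% and 17.6% of all tested genes. The thymidylate synthase gene tyms stood at 5.33, 7.14 and 5.41 FPKM after transport and 11.4, 11.4 and 11.4 FPKM in controls (log2 fold change -0.95, edgeR adjusted p = 0.0268). The thymidine kinase gene tk1 averaged 16.9 FPKM after transport and 30.03 FPKM in controls (edgeR adjusted p = 0.0399). The dUTPase gene dut averaged 39.8 FPKM after transport and 65.2 FPKM in controls (edgeR adjusted p = 0.0435). For rrm2, the small subunit of ribonucleotide reductase, the means were 26.4 FPKM after transport and 38.8 FPKM in controls (edgeR adjusted p = 0.0468). The products of these 4 genes act in thymidine and deoxynucleotide synthesis. Of 13 genes of chromatin assembly and maintenance methylation none was called (median -0.28). Among them, 6 had an unadjusted edgeR p under 0.05, against 25.0% of all tested genes. The smallest p was that of tonsl, a reader of new histones, at 1.31 ± 0.118 FPKM after transport and 2.26 ± 0.322 FPKM in controls (edgeR adjusted p = 0.0514). Tonsl and mms22l are also counted in the origin firing list. Of 34 E2F and retinoblastoma control genes only mybl2, a regulator of mitotic genes, passed, at 1.92 ± 0.192 FPKM after transport and 3.89 ± 0.380 FPKM in controls (edgeR adjusted p = 0.0247). Of the 34 log2 fold changes, 24 were negative (median -0.25). An unadjusted edgeR p under 0.05 was found for 14 of the 34, against 25.0% of all tested genes. Of 25 postreplicative repair genes msh6, for a subunit of the mismatch sensor, was the 1 called gene, at 7.18 ± 0.615 FPKM after transport and 11.5 ± 0.635 FPKM in controls (edgeR adjusted p = 0.0202). Of the 25 log2 fold changes, 20 were negative (median -0.33). There were 9 genes with an unadjusted edgeR p under 0.05, against 25.0% of all tested genes.

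Mitosis genes, which act after replication, had 15 of 25 lower and none higher, against 3.46% and 3.23% of all tested genes. As this list too was chosen with earlier results of these data known, its counts are no independent test. Their median log2 fold change was -0.88. The 4 with the smallest p were anln (adjusted 0.0131), top2a (0.0136), LOC113651426 (a KIF11 kinesin gene, 0.0148) and plk1 (0.0164), by edgeR, with log2 fold changes of -1.05, -1.11, -1.20 and -1.14. By library, the median of the mitosis list was -0.52, -0.46 and -0.43 in transport replicates 1, 2 and 3 and 0.21, 0.73 and 0.45 in control replicates 1, 2 and 3, with the same order of controls as in the replication genes. Whether the 2 lists differ in size of change was not tested. Genes of mitochondrial DNA replication were listed apart from the members, although the member ssbp1 also has a mitochondrial product. Of the 8 listed genes none was called (5 had an unadjusted edgeR p under 0.05, against 25.0% of all tested genes). Of the 8 values 5 were positive, and the median was 0.40. Tfam, which packs mitochondrial DNA, had the smallest p, at 16.5, 15.7 and 16.0 FPKM after transport and 13.1, 10.6 and 10.3 FPKM in controls (log2 fold change 0.49, edgeR adjusted p = 0.0788).

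**Figure D5:**
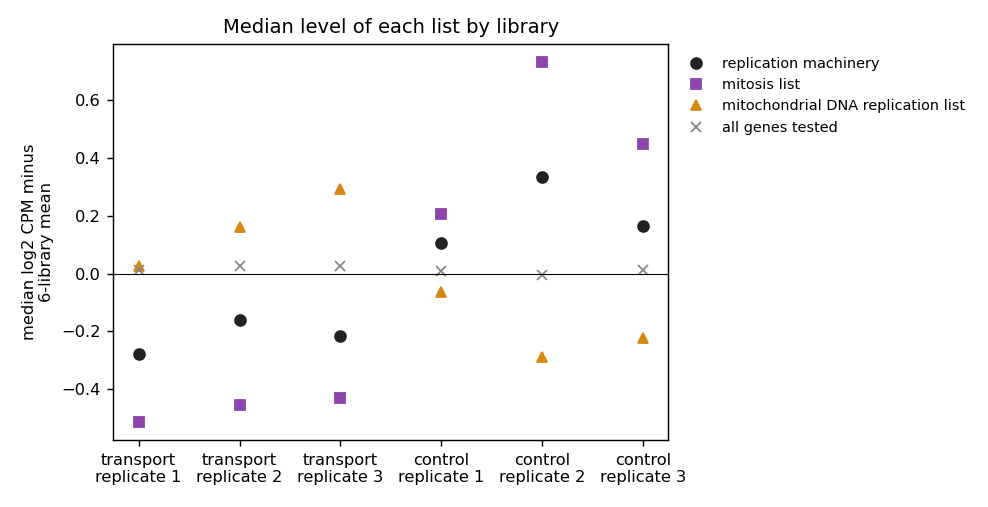
Median over 53 tested replication machinery genes, the mitosis list, the mitochondrial DNA replication list and all tested genes of log2 CPM minus its mean over the 6 libraries, 1 point per list and library. The replication median is below 0 in the 3 transport libraries (-0.28 to -0.16) and above 0 in the 3 controls (0.11 to 0.34), the mitosis median lies further out on the same sides, and the all-gene median stays within 0.03 of 0.

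Among the cell type marker lists, only B cells and fibroblasts and cartilage had more than 1 gene called in the same direction. Over all tested genes, 3.46% fell and 3.23% rose. The marker lists were chosen with earlier results of these data known, so their counts are no independent test. Of 7 B-cell genes 5 fell, and their summed level was 32.2 to 34.0 FPKM after transport and 53.4 to 59.2 FPKM in controls. Of 11 fibroblast and cartilage genes 5 fell, with sums of 178.8 to 184.8 FPKM after transport and 647 to 1078 FPKM in controls. Of 6 tested epithelial genes, 1 fell (tp63), with sums of 2989 to 3296 FPKM after transport and 2964 to 4650.0 FPKM in controls. Of 12 ionocyte genes 1 rose, with sums of 1001 to 1481 FPKM after transport and 884.5 to 1124 FPKM in controls. None of 9 T-cell and natural killer genes (160.1 to 311.5 FPKM over the 6 libraries), 10 endothelial genes (103.1 to 129.8 FPKM after transport and 125.9 to 160.3 FPKM in controls) or 15 erythrocyte genes (5217 to 11910.0 FPKM after transport and 7264 to 14170.0 FPKM in controls) was called, and of 12 neutrophil and macrophage genes 1 rose and 1 fell (sums of 480.0 to 556.2 FPKM after transport and 558.9 to 692.4 FPKM in controls). Skeletal muscle, with no called gene of 23, had sums of 309.7, 1328 and 2202 FPKM in transport replicates 1, 2 and 3 and 2489, 476.1 and 485.5 FPKM in control replicates 1, 2 and 3. Of the muscle list, 6 alpha skeletal actin copies were listed at 0 in every library. The part of these cell types in the replication values was not tested.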

How the data were processed

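Total RNA was isolated with TRIzol and sequenced after standard Illumina library preparation, per the labels' protocols. Libraries were grouped by their titles. HISAT and StringTie are named in the submitters' processing notes. No genome build is named in the sources used here. Per the file headers, the authors gave an FPKM and a count for each gene and library. The deposited counts were whole numbers, but 4 and 8 occurred far more often than adjacent values (476 genes at 4 against 110 at 3 in transport replicate 1), so they were treated as estimated counts, and counting error may be larger than the totals imply. Strand was not stated, and copies or overlapping genes cannot be told apart.

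Here, transport was compared with control in edgeR 4.0.16 (R 4.3.3) over all genes kept by filterByExpr (minimum count 10, minimum total 15), with TMM scaling, the two-sided quasi-likelihood F test, no covariate and Benjamini-Hochberg adjustment at 0.05 over 20771 genes. Standard errors are the size of the log2 fold change over the square root of F. Means and SDs are of deposited FPKM. DESeq2 1.42.0 and limma 3.58.1 on log2(FPKM + 1) were alternatives. The steps were tested on simulated counts. The members and lists were chosen with earlier results of these data known. Listed symbols without a match were looked up by product name among locus numbers. Library values are given for every called member and for at most 3 uncalled members of a role, by p, beside any gene listed at 0, and of each list up to 4 called genes, or the 1 with the smallest p, are named.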

Additional observations from a re-analysis of the deposited data

How the results depend on the processing

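The number of replication genes that fell, 9 in the fit reported, was 20 with DESeq2, among them the same 9, while 3237 of all genes were called (1389 in the fit reported). With the replicate number as a replicate block, 0 replication genes and 14 of all genes were called. Same-numbered libraries did not deviate together (correlations of -0.07, -0.03 and -0.04). With 3 libraries per group, this cannot show whether the samples were paired, and the labels name no pairing. Leaving out 1 library gave 0 to 11 replication genes and 3 to 1498 of all genes. The called replication genes stayed negative in all fits. None was called higher in any fit. Under library totals alone or no filter on low counts 6 fell (1361 and 1291 of all genes called). Under limma on log2(FPKM + 1) 8 fell (1455), and with all counts divided by 4, 9 fell (1675). The median log2 fold change of the members stayed between -0.43 and -0.32. Of the 52 uncalled members tested, 9 took both signs over the fits without 1 library, among them LOC113663999 (-0.53 to 0.23) and mcmdc2 (-0.70 to 0.37). The causes were not tested. Depth limits the low copies, such as LOC113651658 with 0 to 39 estimated counts.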
